A study of Mus musculus with 7 samples.

Results

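The genes studied were the chemokine Cxcl12, its receptors Cxcr4 and Ackr3, the growth factor Kitl (Kit ligand) and its receptor Kit, 5 of the 32285 genes in the files. They were taken by symbol, with earlier results of these data known. Their level was followed in 7 droplet libraries of EGFP-positive, DAPI-negative cells of mouse embryos of mixed Swiss-Webster background, in which Wnt1-Cre switches on an EGFP reporter at the ROSA locus and so labels neural crest cells (NCCs) and the dorsal neural tube. Control embryos had the genotype Wnt1-Cre/+;ROSA-EGFPf/+ and gave 1 library at E8.5 (anterior part of the embryo), 1 at E9.5 (pharyngeal apparatus and heart) and 2 at E10.5 (arches 2 to 6 and heart). The libraries titled Tbx1null, called null here, were 1 at E9.5 (pharyngeal apparatus and heart) and 2 at E10.5 (tissue below arch 1, and heart). The supplement of the study lists the neural tube too in the dissections of E9.5 and E10.5. The genotype label of the null libraries reads Wnt1-Cre/+;Tbx1+/-;ROSA-EGFPf/+, which is heterozygous and goes against the titles. The supplement of the study lists the same libraries as Tbx1-/-, which is homozygous null, and its methods speak of Tbx1 null embryos. Every library was a pool of embryos and counts as 1 replicate, so E8.5 has no replicate and E9.5 has 1 library per genotype.

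Cxcl12 is secreted by stromal and mesenchymal cells and guides migrating cells that carry Cxcr4, a receptor that signals through inhibitory G proteins. Ackr3 binds the same ligand but couples to arrestins and takes the chemokine up, which lowers the amount outside the cell. Kitl is made as a membrane-bound or shed protein and acts on Kit, a receptor tyrosine kinase needed for the survival and spread of melanoblasts, the pigment cell precursors of the neural crest.

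In the mm10 (GRCm38) annotation, GENCODE M21, all 5 are protein-coding genes. Cxcl12 (ENSMUSG00000061353) lies on chromosome 6, 117168535 to 117181367, plus strand. Cxcr4 (ENSMUSG00000045382) is on chromosome 1, 128588199 to 128592293, minus strand, and Ackr3 (ENSMUSG00000044337) on chromosome 1, 90203980 to 90216751, plus strand. Kitl (ENSMUSG00000019966) occupies chromosome 10, 100015630 to 100100416, plus strand, and Kit (ENSMUSG00000005672) chromosome 5, 75574916 to 75656722, plus strand. The 250 bases before the transcription start of Cxcl12 and Ackr3 are shown because these are the members whose mesenchymal level was called higher at E10.5 than at E9.5. They are from RefSeq (GRCm38.p6), at chr6:117168285-117168534 and chr1:90203730-90203979, plus strand, 5′ to 3′, and capitals mark the GC box GGGCGG on either strand.
Cxcl12: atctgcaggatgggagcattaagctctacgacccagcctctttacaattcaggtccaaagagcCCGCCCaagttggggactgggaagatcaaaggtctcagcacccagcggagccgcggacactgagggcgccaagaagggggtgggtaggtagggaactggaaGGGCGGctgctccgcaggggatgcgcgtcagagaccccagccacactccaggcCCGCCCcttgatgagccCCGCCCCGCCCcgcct
Ackr3: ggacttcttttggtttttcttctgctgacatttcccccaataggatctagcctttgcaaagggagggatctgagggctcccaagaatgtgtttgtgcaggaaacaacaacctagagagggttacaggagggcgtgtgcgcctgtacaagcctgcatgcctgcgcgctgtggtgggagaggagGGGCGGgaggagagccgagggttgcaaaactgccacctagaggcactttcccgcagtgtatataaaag
The Cxcl12 window holds 5 GC boxes, of which the last 2 overlap by 1 base, and the Ackr3 window holds 1, while 32.7% of the 32851 RefSeq windows of this length hold at least 1. TATAAA, on either strand, is found once before Ackr3, in 12.4% of all windows and not before Cxcl12. The E-box CANNTG, present in 66.2% of windows, is in neither window.

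The libraries held 140264662 to 234844769 unique molecular identifiers (UMIs, counted transcripts), and 5587 to 9555 cells were kept in each. Tbx1 itself was low in these sorted cells, at 0.545 CPM (UMIs per 1000000 UMIs) in the library of E8.5, 0.687 in the control and 0.610 in the null library of E9.5, 5.04 and 3.79 in the controls of E10.5 and 2.98 and 2.704 in the nulls, and which part of its transcript the allele lacks is not given in the sources used here. Cells were placed in classes by gates. Mesenchymal cells had at least 2 UMIs of Twist1, Prrx1 and Prrx2 together and under 2 of Sox10. Sox10 cells had at least 2 UMIs of Sox10 and under 2 of Twist1, Prrx1 and Prrx2 together. Neuronal cells, in neither gate, had at least 2 UMIs of Elavl3, Elavl4 and Stmn2. Cells with at least 2 UMIs in both gates were in neither class. They were 1670 of 5587 kept cells at E8.5, 724 (control) and 646 (null) at E9.5 and 12 to 159 per library at E10.5. Mesenchymal cells were split into Foxf1 mesenchymal cells (at least 1 Foxf1 UMI), Hox3 mesenchymal cells (no Foxf1 and at least 1 UMI of Hoxa3, Hoxb3 or Hoxd3) and the other mesenchymal cells. At E9.5 and E10.5 a library held 2048 to 6535 mesenchymal, 188 to 1069 Sox10 and 253 to 2892 neuronal cells. All 7 mesenchymal markers were detected in the mesenchymal and all 7 Sox10 crest markers in the Sox10 class of every library, and the summed mesenchymal markers stood at 1455 to 2009.8 CPM in mesenchymal cells at E10.5 against 218 to 246 in Sox10 cells. The mesenchymal list includes the gate genes Twist1, Prrx1 and Prrx2 and the crest list includes Sox10. The gates thus set part of this difference in advance. In the neuronal cells of null replicate 2 at E10.5 the blood markers summed to 497 CPM, against 0 to 2.83 in the other libraries, and endothelial markers to at most 6.75 in mesenchymal, 5.23 in Sox10 and 5.26 in neuronal cells of any library. The level of a gene in a class is given as CPM of the class total and compares cells and libraries for 1 gene, not genes with each other. In such sums, fewer expressing cells and less RNA per cell cannot be told apart. The p-values measure the spread between these pooled libraries. Where the library is a block, they measure how the difference between classes varied over the libraries.

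**Figure D1:**
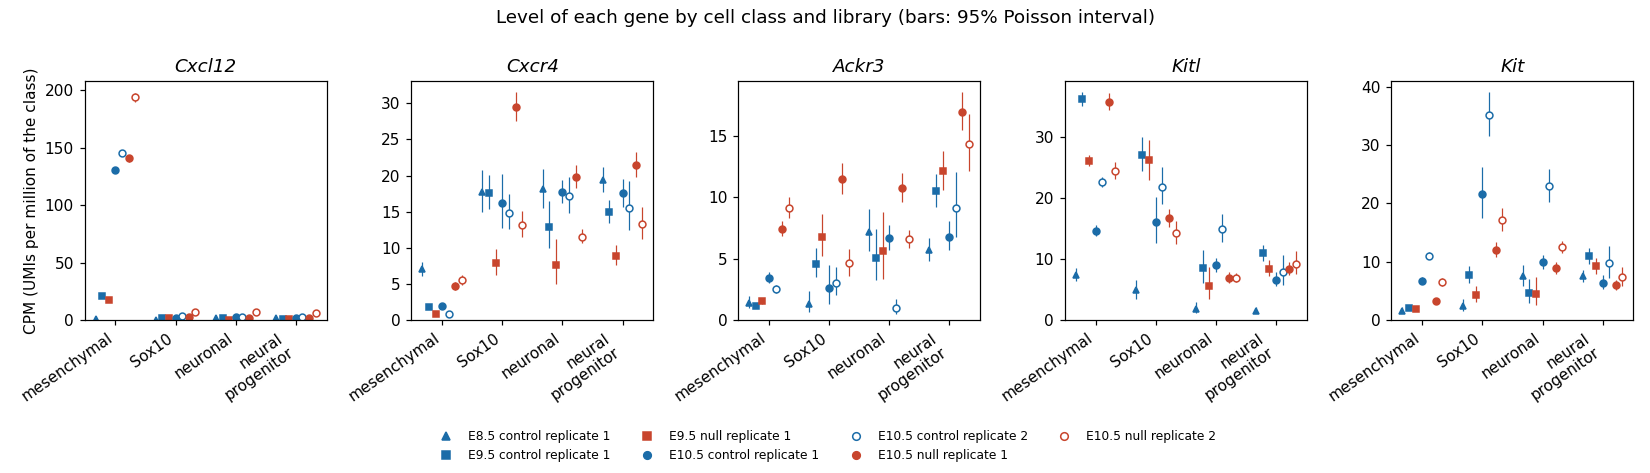
Level of each gene (CPM, vertical axes from 0) in mesenchymal, Sox10, neuronal and neural progenitor cells, 1 point per library with its 95% Poisson interval; blue is control, red null, triangles E8.5, squares E9.5, circles E10.5, and open circles replicate 2. Cxcl12 stands at 130.5 to 194 CPM in mesenchymal cells at E10.5 and at no more than 6.63 in Sox10 cells, while Cxcr4 is lowest in mesenchymal cells.

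At E10.5 Cxcl12 was highest in the mesenchyme. Its CPM there were 0.777 at E8.5, 20.8 and 17.0 in the control and null libraries of E9.5, 130.5 and 146 in the 2 controls of E10.5 and 141 and 194 in the 2 nulls. Every library of E10.5 was above every earlier one, and the genotypes overlapped. In Sox10 cells they were 1.94 and 3.30 in the controls and 2.98 and 6.63 in the nulls of E10.5. Neuronal cells held 2.42 and 2.30 in the controls and 1.96 and 6.55 in the nulls. Cells that passed none of the gates held a mean of 48.2 (SD 12.4) in the controls and 13.8 (SD 10.3) in the nulls of E10.5. For cells in both gates the means were 13.4 and 13.6. After thinning each cell to 5000 UMIs, the share of cells with a Cxcl12 UMI at E10.5 was 34.6 to 40.2% in mesenchymal, 1.22 to 3.096% in Sox10, 0.913 to 3.16% in neuronal and 0.713 to 2.49% in neural progenitor cells (unthinned 57.1 to 62.0%, 4.79 to 17.1%, 2.06 to 9.02% and 1.41 to 7.87%). Median depths were 16268 to 23809, 18387 to 27918, 8674 to 14606 and 10344 to 16328 UMIs per cell. The low share was alike in the last 3 classes, and how much of it is free RNA was not tested.

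Mesenchymal and Sox10 cells of the same libraries were compared at E10.5 with edgeR's quasi-likelihood test on summed counts, with the library as a block and Benjamini-Hochberg adjustment over all genes tested. Of the 5 genes, 1 was higher and 2 were lower in mesenchymal cells at an adjusted p under 0.05, where 41.9% of 14479 genes were called (21.4% higher, 20.4% lower). Cxcl12 was higher by 5.28 ± 0.16 (log2, SE, adjusted p = 2.41e-06, 4 of 4 libraries). The receptors Cxcr4 and Kit were lower, Cxcr4 with a log2 fold change of -2.76 ± 0.39 (adjusted p = 0.00125) and Kit with one of -1.71 ± 0.10 (adjusted p = 2.42e-05). The melanoblast markers were lower with Kit, 3 of 3 tested (median log2 -6.55). Sox10 cells without melanoblast genes (under 2 UMIs of Mitf, Dct and Pmel) had Kit CPM of 10.9 and 13.8 in the controls and 10.1 and 10.3 in the nulls, against 6.71 and 11.01 in the controls and 3.19 and 6.45 in the nulls in mesenchymal cells, so the mesenchymal cells were still lower in each library but the gap was smaller than from all Sox10 cells. Kitl, at a log2 fold change of 0.46 ± 0.18, was not called (adjusted p = 0.0803), but passed with doublets kept, without a filter on low counts, with thinned cells and without control replicate 1 (adjusted p = 0.0409, 0.0339, 0.00053 and 0.0486). Ackr3, at a log2 fold change of 0.03 ± 0.27, was not called either (adjusted p = 0.948).

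**Figure D2:**
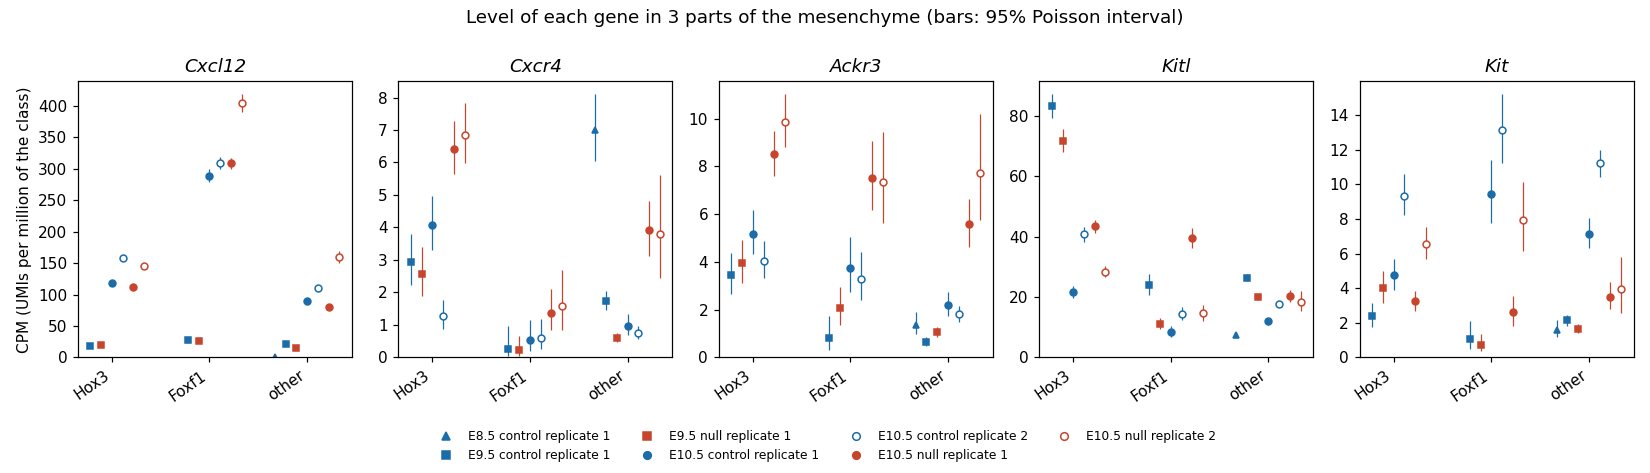
Level of each gene (CPM, vertical axes from 0) in Hox3, Foxf1 and other mesenchymal cells, 1 point per library with its 95% Poisson interval, marked as in the plot by class; classes under 50 cells are left out. Cxcl12 is highest in Foxf1 cells at E10.5 (289 to 405 CPM), and Kitl in Hox3 cells at E9.5 (71.8 and 83.3 CPM).

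Within the mesenchyme, Cxcl12 was highest in the Foxf1 cells. Foxf1 is a forkhead factor of the mesenchyme around the foregut. Their CPM were 27.1 (control) and 25.4 (null) at E9.5, and 289 and 309 (controls) and 309 and 405 (nulls) at E10.5. Hox3 mesenchymal cells, which carry the Hox code of the posterior arches, had 118 and 159 in the controls and 111 and 146 in the nulls of E10.5. The other mesenchymal cells had 89.9 and 111 in the controls and 80.9 and 159.9 in the nulls. In each of the 4 libraries the Foxf1 cells stood above both other kinds. At E9.5 the 3 kinds lay close together, at 27.1, 17.7 and 20.9 in the control library for Foxf1, Hox3 and other cells. Foxf1 over other mesenchymal cells gave a log2 fold change of 1.59 ± 0.09 for Cxcl12 (edgeR, adjusted p = 2.58e-05). Of the 5 genes, 1 was called higher and 1 lower in Foxf1 cells, against 14.5% of 12770 genes (7.39% higher, 7.13% lower). The lower one was Cxcr4, at 0.524 to 1.57 CPM in Foxf1 and 0.747 to 3.91 in other mesenchymal cells (log2 -1.11 ± 0.27, adjusted p = 0.0271). Some neural progenitor and Sox10 crest markers were called lower with it. Of the neural progenitor markers 3 of 5 tested were called lower (median log2 -2.05) and of the Sox10 crest markers 3 of 5 (median -1.30), with progenitor sums of 11.9 and 10.1 in the controls and 19.96 and 77.1 in the nulls in Foxf1 and 37.2 and 8.03 in the controls and 124 and 189 in the nulls in other cells, lower in Foxf1 cells except in control replicate 2. The heart and mesoderm markers tested were higher, 3 of 3 (median 3.02). Their part in the differences of Cxcr4 and Cxcl12 was not tested. The call of Cxcr4 rests on 6 to 20 Cxcr4 UMIs per library and was lost in DESeq2 (adjusted p = 0.096), with doublets kept (0.444), with stricter gates (0.0741) and without control replicate 1 (0.092), null replicate 1 (0.137) or null replicate 2 (0.064).

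Of the 3 kinds of mesenchymal cells, those with Hox3 genes held the most Kitl in 6 of 6 libraries. Their CPM were 83.3 (control) and 71.8 (null) at E9.5, and 21.6 and 40.8 (controls) and 43.4 and 28.4 (nulls) at E10.5. The E9.5 libraries were the highest of all, and at E10.5 the genotypes overlapped. Other mesenchymal cells held 26.4 (control) and 20.1 (null) at E9.5, and 12.0 and 17.6 (controls) and 20.2 and 18.4 (nulls) at E10.5. In Foxf1 cells Kitl was 23.9 (control) and 11.1 (null) at E9.5, and 8.48 and 14.4 (controls) and 39.4 and 14.6 (nulls) at E10.5. The part of the Foxf1 cells that also carried a Hox3 UMI, 28 and 25 cells at E9.5 and 142 to 258 at E10.5, held 82.3 (control) and 49.3 (null) at E9.5, and 20.9 and 36.1 (controls) and 64.9 and 17.4 (nulls) at E10.5, with null replicate 1 the highest of the later libraries. At E10.5 the log2 fold change of Hox3 over other mesenchymal cells was 0.96 ± 0.09 (edgeR with library block, adjusted p = 0.00121). In this comparison 3 of the 5 genes were called, all higher in Hox3 cells, where 12.4% of 14060 genes were called in either direction and 7.42% higher and 4.94% lower. The others were Ackr3 (log2 0.82 ± 0.16, adjusted p = 0.0189) and Cxcr4 (log2 1.06 ± 0.24, adjusted p = 0.0301). Those 2 calls were lost without control replicate 1 (adjusted p = 0.0984 for Ackr3 and 0.0628 for Cxcr4) and without null replicate 1 (0.0698 and 0.0855), and that of Cxcr4 without null replicate 2 (0.0586), while Kitl kept its call without each library in turn. With gates 1 UMI stricter both were also lost (0.0824 and 0.0534), and with thinned cells Ackr3 was (0.212). In the Hox3 cells the CPM of the 6 neuronal markers summed to 177 and 98.4 in the controls and 249 and 1260.2 in the nulls. In the other mesenchymal cells they summed to 38.4 and 26.9 in the controls and 48.7 and 248 in the nulls, so they were higher in the Hox3 cells of each library. Of the neural progenitor markers 5 of 5 were called higher in Hox3 cells (median log2 2.17), with sums of 313 and 50.7 in the controls and 372 and 605 in the nulls against 37.2 and 8.03 in the controls and 124 and 189 in the nulls in other mesenchymal cells. The part of these markers in the differences of Kitl, Ackr3 and Cxcr4 was not tested.

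Sox10 cells and the cells in both gates also held Kitl. In Sox10 cells the CPM were 27.1 (control) and 26.2 (null) at E9.5, and 16.1 and 21.9 (controls) and 16.7 and 14.3 (nulls) at E10.5, and cells with at least 2 UMIs in each gate held 62.0 and 52.2 at E9.5. Neuronal cells had 8.98 and 14.9 in the controls and 6.89 and 6.93 in the nulls of E10.5. Neuronal over Sox10 cells gave 2 calls among the 5 genes, both lower in neuronal cells, where 59.2% of 13773 genes were called and 29.8% lower and 29.3% higher. Kitl was lower in neuronal cells with a log2 fold change of -0.99 ± 0.14 (edgeR, adjusted p = 0.00159), and Kit with one of -0.68 ± 0.12 (adjusted p = 0.00381). With cells thinned before gating, Kit was no longer called (-0.18, adjusted p = 0.435). Of the melanoblast markers 3 of 3 tested were lower in neuronal cells (median -6.28). Kit CPM in neuronal cells were 9.88 and 23.0 in the controls and 8.86 and 12.5 in the nulls, and in the Sox10 cells without melanoblast genes 10.9 and 13.8 in the controls and 10.1 and 10.3 in the nulls, so that the neuronal cells were above these in both replicate 2 libraries and below them in the others. The part of the melanoblast genes in the Kit difference was not tested.

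On the receptor side, Cxcr4 was held by Sox10, neuronal and neural progenitor cells at levels close to each other. In Sox10 cells the CPM were 17.7 at E8.5, 17.6 and 7.89 in the control and null libraries of E9.5, 16.1 and 14.9 in the 2 controls of E10.5 and 29.5 and 13.2 in the 2 nulls. Null replicate 1 of E10.5 was above every other library and null replicate 2 below both controls of that stage. Neuronal cells held 18.1 at E8.5, 12.9 and 7.68 in the control and null libraries of E9.5, 17.7 and 17.2 in the 2 controls of E10.5 and 19.8 and 11.6 in the 2 nulls. Neuronal cells of the crest and of the neural tube were not told apart. The neuronal cells of E10.5 with a UMI of Pou4f1, one of the sensory markers, held 15.4 and 12.4 in the controls and 24.4 and 11.5 in the nulls. Those without it held 18.5 and 21.3 in the controls and 18.2 and 11.6 in the nulls, so the order differed between libraries, with the Pou4f1 cells higher in null replicate 1 and lower in the others. The thinned share of Sox10 cells with a Cxcr4 UMI was 9.31% (7.06 to 12.0) in the control and 3.94% (2.31 to 6.23) in the null library of E9.5 (95% Clopper-Pearson intervals), and 5.10 to 11.9% over the libraries of E10.5 (unthinned 26.7%, 12.4% and 20.8 to 38.1%). In Foxf1 mesenchymal cells it was 0.196 to 0.614% at E10.5, at median depths of 15310 to 26004 UMIs against 18387 to 27918 in Sox10 cells. These intervals cover counting error only.

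Of mesenchymal, Sox10, neuronal and neural progenitor cells, the last held the most Ackr3, the scavenging receptor, in 6 of 7 libraries, and at E8.5 the neuronal cells did (7.15). The progenitors, outside all gates and with at least 2 UMIs of Sox2 and Sox3, held 5.68 at E8.5, 10.5 and 12.1 in the control and null libraries of E9.5, 6.78 and 9.15 in the 2 controls of E10.5 and 17.0 and 14.3 in the 2 nulls. In mesenchymal cells the CPM were 1.41 at E8.5, 1.15 and 1.53 in the control and null libraries of E9.5, 3.43 and 2.50 in the 2 controls of E10.5 and 7.45 and 9.12 in the 2 nulls. Control replicate 2 of E10.5 was the lowest library in neuronal cells, at 0.975 against 6.67 in replicate 1.

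Kit was highest in the Sox10 cells that carried melanoblast genes. Cells with at least 2 UMIs of Mitf, Dct and Pmel, which mark the pigment lineage, numbered 15 and 60 in the controls and 129 and 40 in the nulls of E10.5, and 1 or 2 in each earlier library. Their Kit CPM were 151 and 185 in the controls and 24.9 and 96.3 in the nulls. Sox10 cells without these genes held 10.9 and 13.8 in the controls and 10.1 and 10.3 in the nulls, below the cells with them in each library. In the cells with melanoblast genes null replicate 1 was far below the other 3 libraries. Its cells also went against the name melanoblast, with Dct at 27.4 and Pmel at 24.1 CPM where the other 3 libraries held at least 419 of Dct and 474 of Pmel, while Mitf was 169.8 CPM against 173 to 279.7. A comparison of Sox10 cells with and without these genes, added after the levels were seen, called 1 of the 5 genes by edgeR, which was higher, against 3.53% of 10680 genes (2.23% higher, 1.3% lower). Kit was higher by 2.95 ± 0.34 (log2, SE, adjusted p = 0.000646, 4 of 4 libraries), and by 3.57 without null replicate 1 (adjusted p = 1.3e-13). After thinning it did not pass the filter on low counts. The CPM of Cxcr4 were 0 and 4.98 in the controls and 22.5 and 8.48 in the nulls in the cells with these genes and 17.5 and 16.3 in the controls and 30.5 and 13.6 in the nulls in those without. The 0 stands for 15 cells, where 3 counts would be 8.56 CPM. Its log2 fold change of -0.80 ± 0.27 was not called (adjusted p = 0.143), but passed without null replicate 1 (-1.34, adjusted p = 0.0195), without a filter on low counts (0.00193) and with the libraries of E9.5 added (0.00506).

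**Figure D3:**
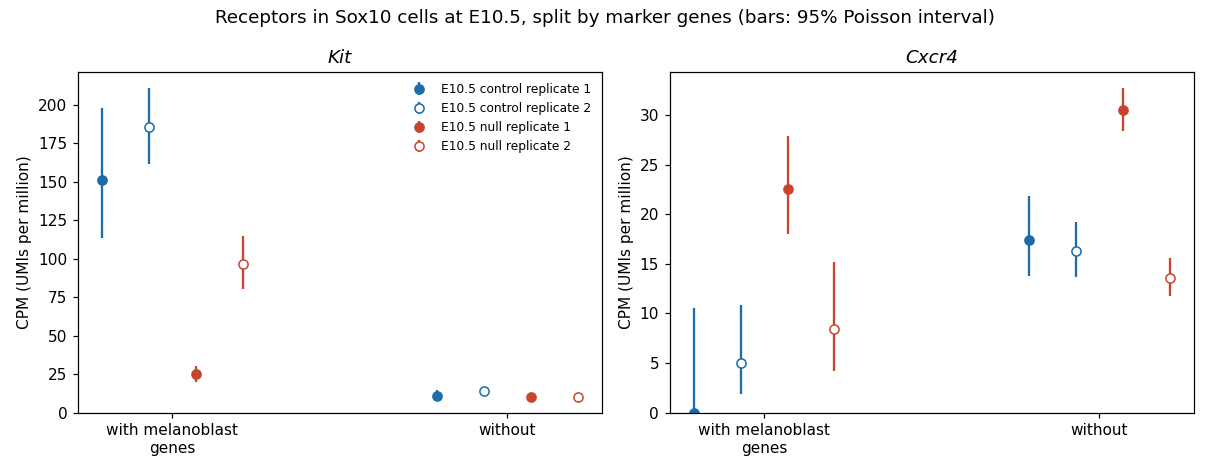
Kit and Cxcr4 (CPM, vertical axes from 0) in Sox10 cells of E10.5 with and without melanoblast genes, 1 point per library with its 95% Poisson interval; blue is control, red null, open circles replicate 2. Kit lies at 24.9 to 185 CPM in the cells with melanoblast genes and at 10.1 to 13.8 in the cells without them.

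Kit UMIs were also found outside the Sox10 class. Neuronal cells with Pou4f1 held 16.1 and 29.4 in the controls and 19.6 and 17.7 in the nulls of E10.5, and the neuronal cells without it 7.80 and 17.5 in the controls and 5.28 and 8.82 in the nulls. The Pou4f1 cells were higher in each library. In mesenchymal cells the CPM were 1.59 at E8.5, 2.11 and 1.88 in the control and null libraries of E9.5, 6.71 and 11.01 in the 2 controls of E10.5 and 3.19 and 6.45 in the 2 nulls. The thinned share of these cells with a Kit UMI was 1.03 and 1.04% at E9.5 and 1.83 to 5.45% at E10.5 (unthinned 4.91, 3.95 and 7.37 to 15.7%), against 5.73 to 12.3% of Sox10 cells at E10.5. No class known to lack Kit was gated, so how much of the low mesenchymal share is free RNA was not tested. In mesenchymal CPM every E10.5 library lay above every earlier one. Within E10.5 the nulls were below the controls, with 6.45 and 6.71 near a tie. In Hox3 cells the genotypes overlapped, at 4.73 and 9.35 in the controls and 3.24 and 6.57 in the nulls. The share of all genes with such orders was not counted. Melanoblast markers summed to no more than 2.87 CPM in mesenchymal cells of any library.

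The step from E9.5 to E10.5 was fitted with genotype and stage as terms over the 6 libraries of these ages, a comparison added after the levels were seen, in which stage and the tissue taken cannot be told apart. In mesenchymal cells 2 of the 5 genes were called, both higher at E10.5, where 24% of 16374 genes were called and 11.6% higher and 12.3% lower. Cxcl12 rose by 2.50 ± 0.21 (log2, SE, adjusted p = 0.00353) and Ackr3 by 1.36 ± 0.31 (adjusted p = 0.023). Markers of other cell types moved with them. Of the smooth muscle markers 4 of 4 were called higher (median log2 1.57, against 0.08 for all genes), with a summed CPM of 34.99 and 35.2 at E9.5 and 92.4 to 164 at E10.5. Of the heart and mesoderm markers, Tbx1 among them, 3 of 5 were (median 2.44), with a sum of 5.29 and 9.22 at E9.5 and 6.43 to 21.0 at E10.5, and of the neuronal markers 2 of 6. The autonomic markers had 2 of 6 called higher. Among the Sox10 crest markers 4 of 7 were called lower and 1 higher (median -1.4), with sums of 92.2 and 102 at E9.5 and 29.2 to 194 at E10.5 that overlapped. Their part in the change of Cxcl12 and Ackr3 was not tested. From the level of its own genotype at E9.5, Cxcl12 was 6.28- and 7.02-fold higher in the controls and 8.28- and 11.4-fold in the nulls. Without the control library of E9.5 neither gene was called, Cxcl12 at 2.72 (adjusted p = 0.0591) and Ackr3 at 1.86 (adjusted p = 0.0847). Ackr3 was also not called without control replicate 1 of E10.5 (adjusted p = 0.0735) or without the null library of E9.5 (0.18).

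In Foxf1 cells 3 of the 5 genes were called, all higher at E10.5, against 26.4% of 12786 genes (13.6% higher, 12.9% lower). They were Cxcl12 (3.20 ± 0.23, adjusted p = 7.26e-05), Kit (2.64 ± 0.50, adjusted p = 0.00427) and Ackr3 (1.51 ± 0.33, adjusted p = 0.00782), in log2 with SE from edgeR. The CPM of Kit in Foxf1 cells were 1.07 (control) and 0.733 (null) at E9.5, and 9.44 and 13.1 (controls) and 2.60 and 7.97 (nulls) at E10.5, with no overlap between the stages. Without the control library of E9.5 Kit and Ackr3 were not called (adjusted p = 0.0829 and 0.078), nor was Ackr3 without the null library of E9.5 (0.0729) or Kit with thinned cells (0.0644), and Cxcl12 kept its call without each of the 6 libraries in turn. Heart and mesoderm markers summed to 1.60 and 2.35 at E9.5 and 21.2 to 57.2 at E10.5 in these cells, and smooth muscle markers to 121 and 61.9 at E9.5 and 131 to 237 at E10.5. Of the neuronal markers 4 of 6 were called higher (median 2.98, sums of 10.8 and 7.04 at E9.5 and 24.1 to 176 at E10.5), of the neural progenitor markers 2 of 5 (median 1.83) and of the endothelial markers 2 of 3 tested, with 1 lower (median 2.94, sums of 1.74 and 1.47 at E9.5 and 2.87 to 8.57 at E10.5). Their part in these changes was not tested.

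Hox3 cells gained Cxcl12 and had less Kitl at the later stage. Of the 5 genes 1 was called higher and 1 lower, against 14.4% of 14273 genes (7.18% higher, 7.24% lower). Cxcl12 rose by 2.41 ± 0.23 (edgeR, adjusted p = 0.00267), and the log2 difference of Kitl was -1.60 ± 0.29 (adjusted p = 0.0164). Kitl was not called without the control library of E9.5 (adjusted p = 0.24) or without the null one (0.116), and Cxcl12 not without the control library (0.0979). In Hox3 cells the smooth muscle markers summed to 5.37 and 16.2 at E9.5 and 38.3 to 154 at E10.5. Of the neuronal markers 3 of 6 were called higher, with sums of 33.8 and 44.8 at E9.5 and 98.4 to 1260.2 at E10.5, and of the Sox10 crest markers 4 of 6 tested lower (median -2.90), with sums of 161 and 246 at E9.5 and 53.3 to 248 at E10.5 that overlapped. Their part in the change of Cxcl12 and Kitl was not tested.

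In Sox10 cells Kit was called higher and Kitl lower at E10.5, 2 of the 5 genes against 21.1% of 12553 (11.2% higher, 9.97% lower). Kit CPM were 7.68 (control) and 4.36 (null) at E9.5, and 21.5 and 35.1 (controls) and 12.0 and 17.1 (nulls) at E10.5, a log2 difference of 1.45 ± 0.27 (edgeR, adjusted p = 0.00603). Kitl differed by -1.004 ± 0.20 (adjusted p = 0.00712). Both calls were lost without the control library of E9.5 (adjusted p = 0.121 and 0.0827) and without the null library (0.0531 and 0.11). In neuronal cells none of the 5 genes was called by edgeR (8.47% of 14032 genes were), 1 had an unadjusted p under 0.05 (28.6% of all genes had), and DESeq2 called 1, Kit (16.1% of all). The melanoblast markers of the Sox10 class summed to 2.41 and 2.60 CPM at E9.5 and to 194 and 171 in the controls and 34.7 and 134 in the nulls of E10.5. Of the neuronal markers 4 of 6 were called higher (median 2.69), with sums of 175 and 122 at E9.5 and 217 to 699 at E10.5, and of the sensory markers 3 of 6 (median 3.26). The autonomic markers had 5 of 6 called higher (median 1.72) and the neural progenitor markers 3 of 5 (median 0.855). The part of these markers in the Kit and Kitl differences was not tested.

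Genotype was tested between 2 null and 2 control libraries of E10.5 in 6 classes with edgeR. None of the 5 genes was called in any class, where 0.0317% of 15768 genes were called in mesenchymal, 0.014% of 14327 in Hox3, 0.0711% of 12667 in Foxf1, 0.164% of 14046 in other mesenchymal, 0.0395% of 12655 in Sox10 and 0% of 14377 in neuronal cells. At an unadjusted p under 0.05 there were 3, 1, 4, 3, 2 and 1 of the 5 genes in that order, where 14.2%, 11.5%, 11.1%, 14.7%, 9.89% and 5.39% of all genes tested had such a p. DESeq2 called 2 of the 5 in mesenchymal cells (Cxcr4 and Ackr3), 3 in other mesenchymal cells (with Kit) and 0 in the other classes, against 4.12%, 1.4%, 0.892%, 3.09%, 0.529% and 0.167% of all genes in the same order.

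**Figure D4:**
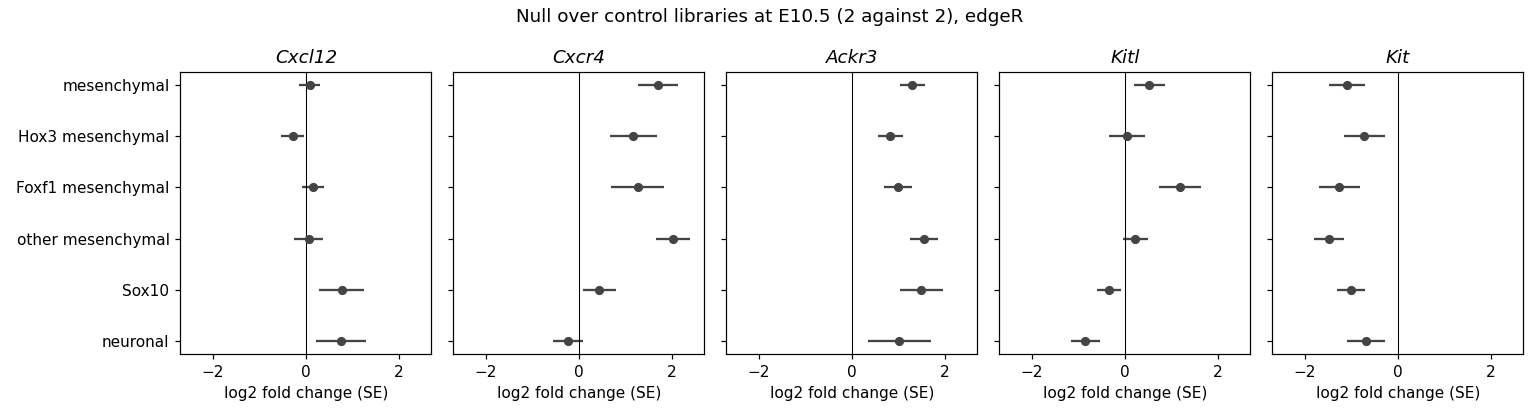
Log2 fold change of null over control at E10.5 for each gene (horizontal axis, points with SE bars, 2 libraries against 2) in 6 cell classes. None passed an adjusted p of 0.05; Cxcr4 and Ackr3 lie right of 0 in every kind of mesenchymal cell and Kit left of 0, while Cxcl12 lies near 0 in mesenchymal cells (0.08).

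For Cxcl12 the genotypes overlapped in each of the 6 classes tested, and its log2 difference in mesenchymal cells was 0.08 ± 0.22 (edgeR, adjusted p = 0.886). The CPM of Cxcr4 in mesenchymal cells were 1.93 and 0.849 in the controls and 4.70 and 5.48 in the nulls, a log2 difference of 1.70 ± 0.42 that was not called (adjusted p = 0.267). Both nulls lay above both controls there and in Hox3, Foxf1 and other mesenchymal cells, but not in Sox10 cells. For Ackr3 they were 3.43 and 2.50 in the controls and 7.45 and 9.12 in the nulls, a difference of 1.30 ± 0.27 (adjusted p = 0.254), and its nulls were also above the controls in the 3 kinds of mesenchymal cells and in Sox10 cells. For Kit they were 6.71 and 11.01 in the controls and 3.19 and 6.45 in the nulls, a difference of -1.10 ± 0.39 (edgeR, adjusted p = 0.299). Both nulls lay below both controls there and in Foxf1, other mesenchymal and Sox10 cells, but the genotypes overlapped in Hox3 cells. The share of all genes whose genotypes did not overlap was not counted. Hox3 cells were 1022 of 3227 and 1474 of 6535 mesenchymal cells in the controls of E10.5. In the nulls they were 1591 of 3038 and 1411 of 2048. The part of this mix in the values of all mesenchymal cells was not tested. Without null replicate 1, the only library of E10.5 made with version 3 of the library chemistry, all remaining libraries share version 3.1. By the supplement of the study, its embryos also had the fewest somites of the E10.5 libraries. Chemistry and embryo age cannot be told apart in that library. The log2 differences in mesenchymal cells without null replicate 1 were 1.75 for Cxcr4, 1.38 for Ackr3 and -0.71 for Kit (edgeR). That of Kitl was 0.15, against 0.53 with null replicate 1. With 1 null library left, the spread of the nulls was not measured.

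Neural genes moved with Cxcr4 in the mesenchymal gate at E10.5. The CPM of the 6 neuronal markers summed to 82.3 and 44.6 in the controls and 147 and 923 in the nulls. The 5 neural progenitor markers summed to 125 and 18.3 in the controls and 230.2 and 452 in the nulls, so both nulls were higher for each list, and none of these markers was at 0 in a library. The Sox10 crest markers summed to 97.9 and 29.2 in the controls and 148 and 194 in the nulls. The median log2 difference was 2.41 for the autonomic and 3.39 for the sensory markers, with none called. At E9.5 the neuronal sum was 21.4 in the control and 19.8 in the null library, while Cxcr4 was 1.85 and 0.826. Mesenchymal cells with a Cxcr4 UMI were set against those without one in the same library, for genes of at least 20 CPM in the former. The steadiest differences were in Irx2, Uchl1, Map1b, Zfhx2, Vat1 and Pax6. Their lowest ratio over 6 libraries was 2.41 to 2.85, with 24 to 76 cells carrying Cxcr4 per library. Both the filter and the ranking pick genes that are high in the cells with Cxcr4. These ratios are therefore descriptions without a test. Uchl1 and Map1b are known from neurons and Pax6 from neural progenitors. The part of these genes in the genotype difference was not tested.

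**Figure D5:**
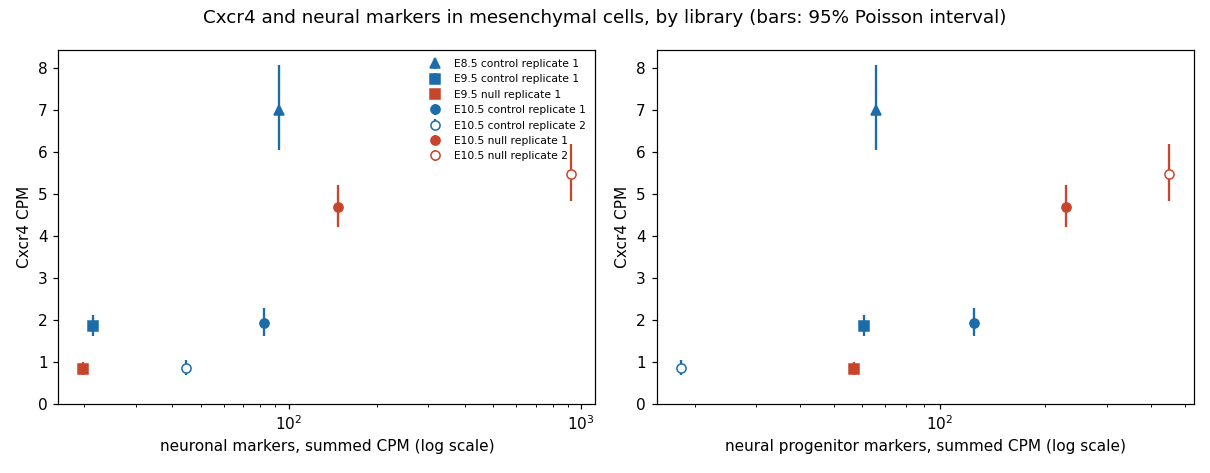
Cxcr4 (CPM, vertical axes from 0, 95% Poisson interval) against the summed CPM of neuronal and of neural progenitor markers (log axes) in mesenchymal cells, 1 point per library; blue is control, red null, triangles E8.5, squares E9.5, circles E10.5, open circles replicate 2. Null replicate 2 of E10.5 is farthest right in both panels, at 923 and 452 CPM, and the 2 nulls of E10.5 lie above the 2 controls in Cxcr4.

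In Sox10 cells the CPM of Kit were 21.5 and 35.1 in the controls and 12.0 and 17.1 in the nulls, a log2 difference of -1.01 ± 0.29 (edgeR, adjusted p = 0.33). The melanoblast markers of these cells were lower in both nulls too, with a summed CPM of 194 and 171 in the controls and 34.7 and 134 in the nulls, while Kit in the Sox10 cells without melanoblast genes was 10.9 and 13.8 in the controls and 10.1 and 10.3 in the nulls. Their part in the Kit difference was not tested. The neuronal markers summed to 258 and 217 in the controls and 293 and 699 in the nulls, and Ackr3 differed by 1.49 ± 0.46 (adjusted p = 0.361). Leaving out 1 library left 1 in its group, whose spread is then not measured, so only effect sizes are given. Without null replicate 2 the remaining null was made with chemistry version 3 and both controls with 3.1. Genotype, chemistry and embryo age cannot be told apart in that fit. In Sox10 cells its log2 differences were 0.91 for Cxcr4, 1.99 for Ackr3 and -1.28 for Kit. Without null replicate 1 they were -0.27, 0.66 and -0.79. For Kitl in Foxf1 cells the difference was 1.18 ± 0.45 (edgeR, adjusted p = 0.392). It was 0.24 without null replicate 1 and 1.75 without null replicate 2. Kit and Ackr3 in Foxf1 cells were -2.15 and 1.06 without null replicate 2, but -0.61 and 0.96 without null replicate 1. With all 4 libraries these 2 were -1.26 and 0.99 (edgeR, adjusted p = 0.35 and 0.303). In other mesenchymal cells Cxcr4 was 2.18 and Kit -1.78 without control replicate 1, and 1.97 and -1.42 without null replicate 1. With all 4 libraries they were 2.02 and -1.48 (edgeR, adjusted p = 0.0832 and 0.103). Ackr3 in neuronal cells was 3.1 without control replicate 1 and 0.61 without null replicate 1. With all 4 libraries it was 1.02 (edgeR, adjusted p = 0.81).

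At E9.5, with 1 library per genotype, there is no test, and genotype and chemistry version cannot be told apart. The ratio of null to control CPM, with an exact conditional interval for counting error only, was 0.722 (95% interval 0.691 to 0.755) for Kitl in mesenchymal cells. In Foxf1 cells it was 0.466 (95% interval 0.373 to 0.582), against 0.861 (95% interval 0.801 to 0.926) in Hox3 cells. Cxcl12 had a ratio of 0.818 (95% interval 0.773 to 0.867) in mesenchymal cells, but 1.14 (95% interval 0.981 to 1.32) in Hox3 cells. Cxcr4 was lower in the null library in mesenchymal cells, at 0.446 (95% interval 0.353 to 0.562), and in Sox10 cells, at 0.448 (95% interval 0.341 to 0.583). Kit in Sox10 cells had a ratio of 0.568 (95% interval 0.387 to 0.821). In Hox3 cells Kit went the other way, at 1.68 (95% interval 1.15 to 2.46). When cells were thinned before gating, the ratios in Sox10 cells were 0.708 for Cxcr4 and 0.344 for Kit. For Ackr3 the ratio was 1.33 (95% interval 1.07 to 1.67) in mesenchymal cells and 1.47 (95% interval 1.02 to 2.12) in Sox10 cells, and it was 0.931 and 0.723 when cells were thinned before gating.

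At E8.5 both ligands were lower in the mesenchymal cells than in any later library and Cxcr4 was higher. Cxcl12 had 21 UMIs in the 1102 mesenchymal cells, or 0.777 CPM (95% Poisson interval 0.481 to 1.19). Kitl stood at 7.44 CPM (6.45 to 8.54). Cxcr4 in mesenchymal cells was 7.00 CPM (6.03 to 8.07), more than in any later library. The mesenchymal gate of this library stood apart, with mesenchymal markers summing to 406 CPM against 1334 to 2009.8 in the later libraries and Sox10 crest markers to 216 against 29.2 to 194, and their part in these levels was not tested. This library alone was made with chemistry version 2 and from the anterior part of the embryo, so stage, chemistry and tissue cannot be told apart.

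Some mesenchymal cells held both ligands, more than independence of the genes would give. In cells thinned to 5000 UMIs, both were found in 1.31 to 7.64% of the mesenchymal cells of a library at E9.5 and E10.5. Cxcl12 and Kitl were together in 90 cells against 69.1 if the genes were independent in control replicate 1 of E10.5, 275 cells against 233 in control replicate 2, 230 cells against 157 in null replicate 1 and 121 cells against 80.3 in null replicate 2. The ratio of found to independent was above 1 in 6 of 6 libraries of E9.5 and E10.5, at 1.18 to 1.59, and 1.28 to 1.99 within Hox3 cells. Within Foxf1 cells it was 0.781 to 1.14, below 1 in both replicate 2 libraries of E10.5. Cxcl12 with its receptor Cxcr4 was found together in 4 cells against 28.1 in null replicate 1, 5 cells against 19.3 in null replicate 2, 1 cell against 10.4 in control replicate 1 and 9 cells against 9.55 in control replicate 2. Each of the 4 libraries thus held fewer such cells than independence would give, in control replicate 2 by less than 1 cell. Kitl with Kit showed no single order. At E10.5 it stood at 3 cells against 6.57 in control replicate 1, 29 cells against 31.9 in control replicate 2, 4 cells against 7.76 in null replicate 1 and 9 cells against 6.47 in null replicate 2, and at E9.5 at 10 cells against 6.85 in the control and 9 cells against 7.00 in the null library. These are counts of cells, which are not replicates, and no test was made of them.

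Genes that set apart cells with a ligand or receptor UMI from those without it were ranked by their lowest ratio over libraries. Only genes of at least 20 CPM in the cells with the UMI in every library used entered. That filter looks at the group where they are high, so the ratios are descriptions without a test. For Kitl, mesenchymal cells with a UMI held more Meox1 and Alx1 in every library of E9.5 and E10.5, at a ratio to the cells without it of 2.01 to 5.03 for Meox1 and 1.96 to 3.24 for Alx1, followed by Cxcl12, Plpp3, Ptx3 and Tshz2. Both leaders are homeobox factors. For Cxcl12 they were Ptx3, Tagln, Ptch1, Mecom, Igf2 and Kitl, with ratios of 1.65 to 3.76 for the smooth muscle gene Tagln and 1.48 to 4.87 for the Hedgehog receptor Ptch1. The lists of both ligands thus share Ptx3, and each holds the other ligand. For Ackr3 they were Ezr, Colec12, Rspo1, Rspo3, Metrnl and Krt18, an epithelial keratin, over 39 to 104 cells per library. Neuronal cells with Cxcr4 held more Slc17a6, the vesicular glutamate transporter, C1ql3, Nrn1, Cnmd, Armh4 and Lhx9, and those with Kit more Robo3, an axon guidance receptor, Pid1, Lamp5, Scx, Sorbs2 and Hmx2, in the libraries with at least 20 such cells (4 for each gene). Their lowest ratios were 2.45 to 4.14 and 2.83 to 3.61. Sox10 cells with Cxcr4 held more Pla2g7, 2700046A07Rik, Sp5, Nkd1, Has2 and Tmem164, and those with Kit more Axin2, Tle1, Rnf139, Cntfr, Zbtb33 and Ddhd2. These lists rest on 4 libraries for each gene, with 28 to 127 cells carrying Cxcr4 and 22 to 62 carrying Kit per library. Their lowest ratios were 1.59 to 2.04 and 1.54 to 1.75.

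Across 40 profiles of a library and class, which share libraries and depth, the levels most like that of Cxcl12 on the log2(CPM + 1) scale were those of Ddr2 (r = 0.97), Dnm3os (r = 0.97), Nfatc4 (r = 0.97). For Cxcr4 they were Celf2 (r = 0.94), Etfrf1 (r = 0.91), Zeb2os (r = 0.91), and for Ackr3 1700008J07Rik (r = 0.87), Fxyd6 (r = 0.84), Tedc1 (r = 0.83). Kitl was most like Serpinf1 (r = 0.81), Meox1 (r = 0.78), Peg10 (r = 0.77), and Kit like Atp11a (r = 0.84), Inpp5f (r = 0.83), Ptprf (r = 0.82). Of the 5 genes, Cxcl12 had the closest companions. These are descriptions without a test.

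The Cxcl12 list held 21 genes of its regulators, transducers and related ligands, and the Kit list 19 signalling partners of the receptor or shedding enzymes of the ligand. Between genotypes at E10.5, edgeR called 0 genes of either list in the 6 classes and DESeq2 0, while 1 to 3 of the 17 to 20 tested genes of the Cxcl12 list and 0 to 4 of 19 of the Kit list had an unadjusted p under 0.05, as 5.39 to 14.7% of all genes did by class. In mesenchymal against Sox10 cells, 6 of 20 tested genes of the Cxcl12 list were higher and 6 lower, against 21.4% and 20.4% of all genes, with a median log2 fold change of 0.00, as for all genes. The forkhead factors Foxc2 (5.59, adjusted p = 2.24e-05) and Foxc1 (3.96, 5.8e-07), the chemokine Cxcl14 (3.22, 0.00105), the receptor kinase Grk3 (1.93, 0.000133), Gnai2 (0.78) and Grk2 (0.30) were higher, and paxillin (Pxn, -2.11, 8.39e-06), Cd74 (-1.90), Gnai1 (-1.37), Arrb1 (-0.95), Rac1 (-0.23) and Ptk2 (-0.21) lower. Of the Kit list, 1 of 19 was higher (the adaptor Shc1, 0.46) and 10 were lower (median -0.25). The lower ones were Mitf (-4.51, adjusted p = 5.26e-06), the Src family kinases Lyn (-1.75), Fyn (-1.64) and Src (-1.24), the adaptors Gab1 (-1.52) and Gab2 (-1.27), Sh2b3 (-0.77), Spred1 (-0.65), Cbl (-0.25) and Ptpn11 (-0.19).

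Within the mesenchyme, Foxc1 and Foxc2 were higher in Foxf1 than in other mesenchymal cells, by 1.17 and 1.12 in log2 (edgeR, adjusted p = 3.64e-05 and 0.0114), as Cxcl12 was, and lower in Hox3 cells (-0.69 and -0.57, adjusted p = 0.0273 and 0.0357). Cxcl14 was lower in both, at -2.16 in Foxf1 and -1.52 in Hox3 cells (adjusted p = 0.00237 and 0.0033). In all, 4 of 19 genes of the Cxcl12 list were higher and 1 lower in Foxf1 cells, Arrb1 (0.73) and Grk3 (0.49), which act in receptor shut-off, being the other higher ones, where 7.39% of all genes were higher and 7.13% lower (list median 0.01), and 1 was higher (Gnai2, 0.28) and 3 were lower in Hox3 cells, against 7.42% and 4.94% of all genes (list median -0.01). Of the 19 tested genes of the Kit list, 4 were higher and 0 lower in Foxf1 cells (median 0.10), the higher being Socs1, Sh2b3, Src and Ptpn11 (by 0.15 to 0.73), and Pik3r1 was higher and Ptpn6 lower in Hox3 cells (0.41 and -1.31).

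Neuronal against Sox10 cells had 6 higher and 8 lower genes of 18 tested in the Cxcl12 list, led by Grk3 (2.00) and Pxn (-2.75), and 2 higher and 13 lower of 19 in the Kit list, where 29.3% of all genes were higher and 29.8% lower. The list medians were -0.13 and -0.95. The melanocyte factor Mitf (-4.32), Lyn (-2.75), Ptpn6 (-2.73), Socs1 (-2.41) and Gab1 (-2.30) had the most negative values, and Grb2 (0.66) and Pik3ca (0.52) were the higher ones. From E9.5 to E10.5, Stat3, a transcription factor activated by cytokines, was called higher in mesenchymal (1.05), Hox3 (1.08), Foxf1 (1.03) and Sox10 cells (1.59), and Mif, a cytokine that also binds Cxcr4, lower in these and in neuronal cells (-1.39 to -1.13). In all, 4 of 21 genes of the Cxcl12 list were higher and 2 lower in mesenchymal cells (11.6% and 12.3% of all genes). The counts were 3 and 2 of 20 in Hox3 (7.18% and 7.24%), 6 and 2 of 19 in Foxf1 (13.6% and 12.9%) and 2 and 2 of 18 in Sox10 cells (11.2% and 9.97%). In neuronal cells they were 0 and 1 of 18, where 8.47% of all genes were called in either direction. Foxc2 was higher in mesenchymal cells (1.97) and in Foxf1 and Hox3 cells (1.67 and 1.60). In Sox10 cells 6 of 19 genes of the Kit list were higher and 0 lower (median 0.56, against 11.2% higher and 9.97% lower of all genes), with Mitf at 3.48 and Gab2 at 1.91 (edgeR, adjusted p = 0.000152 and 0.00243). The melanoblast markers were higher in the same cells, 4 of 4 tested (median 6.76), and Mitf is one of the genes of the melanoblast gate. In the other classes the Kit list had 2 higher and 2 lower genes in mesenchymal, 2 and 1 in Hox3, 3 and 0 in Foxf1 and 1 and 0 in neuronal cells.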

How the data were processed

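Droplet single-cell RNA-seq libraries were made from sorted EGFP-positive cells of pooled embryos. Per the labels and the methods of the study, the authors ran Cell Ranger 6.0.1 against mm10, and the deposited files hold UMI counts per gene and barcode, not normalized. Of 5987 to 12047 barcodes per library, those under 1000 genes or over 10% mitochondrial UMIs were dropped, and the barcodes with the highest Scrublet scores (scanpy 1.11.5) were removed at 0.8% per 1000 barcodes. Libraries shared 0 to 44 barcodes by pair. The median kept cell held 14824 to 22882 UMIs. Counts were summed per library and gate and tested with edgeR 4.0.16 (R 4.3.3; TMM, filterByExpr, quasi-likelihood, Benjamini-Hochberg over all genes tested, called at an adjusted p under 0.05), with the library as a block where classes of the same libraries were compared. DESeq2 1.42.0, other scaling, no filter, the thresholds of the study (log2 over 0.25 and a UMI in 10% of cells), thinning to 5000 UMIs, a looser gene and stricter mitochondrial filter, doublets kept, stricter gates, a replicate block, and leaving out each library were tried. Adjusted p-values given without a tool are from edgeR. Poisson, Clopper-Pearson and conditional intervals cover counting error only. Scripts were tested on simulated data. A further split of the Sox10 and neuronal cells is not reported here. Named genes were the 5 genes, the called members of the pathway lists, the 3 most correlated genes and the 6 genes with the steadiest ratio between cells with and without a UMI. The genes and lists were chosen with earlier results of these data known.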

Additional observations from a re-analysis of the deposited data

Results flagged for a closer look

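Several values pointed one way at E9.5, with 1 library per genotype, and the other way at E10.5, where both nulls lay on the opposite side of both controls. The ratio of null to control CPM at E9.5 was 0.4462 for Cxcr4 in mesenchymal cells and 0.3446 in other mesenchymal cells, while both nulls of E10.5 were above both controls in these classes. For Kitl it was 0.7225 in mesenchymal, 0.4658 in Foxf1, 0.7617 in other mesenchymal and 0.7701 in neural progenitor cells, again with both nulls higher at E10.5. Some of these orders of Kitl were near ties. In Foxf1 cells the nulls of E10.5 had 39.4 and 14.6 CPM and the controls 8.48 and 14.4. In mesenchymal cells null replicate 2 had 24.5 and control replicate 2 had 22.6. In Hox3 cells the genotypes overlapped. The share of all genes with such an order was not counted. The difference between the stages was not tested, and the null library of E9.5 and the control library of that stage were made with different chemistry versions.

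Kitl also differed in direction between classes of the same libraries. The mean CPM of the nulls of E10.5 was 1.619 times that of the controls in mesenchymal cells, with both nulls higher, and 0.5792 times in neuronal cells, with both nulls lower. The mesenchymal CPM were 14.6 and 22.6 in the controls and 35.8 and 24.5 in the nulls. Hox3 cells, the highest in Kitl, made up more of the mesenchymal cells in the nulls than in the controls. Within Hox3 cells the log2 difference was 0.05 ± 0.39 (edgeR, adjusted p = 0.965). The part of this mix in the mesenchymal value was not tested. The difference between mesenchymal and neuronal cells was not tested either.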

How the results depend on the processing

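The higher Cxcl12 in mesenchymal than in Sox10 cells and in Foxf1 than in other mesenchymal cells, and the lower Cxcr4 and Kit in mesenchymal than in Sox10 cells, were called under all 14 alternatives of each. For the values below the cause was not tested. Between genotypes none of the 5 genes was called, but DESeq2 called 2 in mesenchymal and 3 in other mesenchymal cells, against 4.12% and 3.09% of all genes. The fit without a filter on low counts called 3, 2, 3 and 2 in mesenchymal, Foxf1, other mesenchymal and Sox10 cells. The replicate block called 1 gene in Foxf1 and 3 in other mesenchymal cells. The share of all genes called in these last fits is not given here, so their counts cannot be set against it. Fits between genotypes that left out 1 library had 1 library in a group, so their calls are not counted here. The labels do not tie the replicate numbers to a shared batch, and same-numbered libraries deviated together with a correlation of 0.0347 to 0.341 by class over 2 pairs, so the pairing was not used. Uncalled genotype values changed sign. With the E9.5 libraries and stage as a term, Cxcl12 was -0.03 in mesenchymal and -0.10 in other mesenchymal cells, Kitl -0.05 in Hox3 cells and Cxcr4 -0.08 in Sox10 cells. With thinned cells and with stricter gates Cxcl12 in Hox3 cells was 0.02. Leaving out 1 library gave -0.06 to 0.25 for Cxcl12 in mesenchymal, -0.42 to 0.47 in other mesenchymal and -0.33 to 1.36 in neuronal cells, -0.36 to 0.61 for Kitl in Hox3 and -0.04 to 0.54 in other mesenchymal cells, -0.27 to 0.91 for Cxcr4 in Sox10 and -0.70 to 0.12 in neuronal cells, and -1.16 to 0.02 for Kit in neuronal cells.

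Between classes, 1 gene was called in Foxf1 against other mesenchymal cells with DESeq2, the thresholds of the study, thinned cells, doublets kept, stricter gates and no replicate block, and 1 to 2 without 1 library. Hox3 against other cells gave 0 calls without the block and 1 to 3 without 1 library. Neuronal against Sox10 cells gave 1 with thinned cells and 1 without the block. Sox10 cells with against without melanoblast genes gave 0 with thinned cells, 2 without a filter, 2 with the E9.5 libraries and 1 to 2 without 1 library, the 2 being without null replicate 1. Between stages, mesenchymal cells gave 4 calls with DESeq2, 4 without a filter, 1 with the thresholds of the study and 0 to 4 without 1 library. Foxf1 cells gave 1 with thinned cells and 1 to 4 without 1 library, Hox3 cells 0 to 2, Sox10 cells 0 to 3, and neuronal cells 1 with DESeq2 and 1 without a filter. The ratios at E9.5 with thinned cells were 0.583 for Cxcr4 and 0.9312 for Ackr3 in mesenchymal cells, and 3.613 for Cxcl12, 0.7084 for Cxcr4, 0.7225 for Ackr3, 1.913 for Kitl and 0.3441 for Kit in Sox10 cells. Stricter gates gave 0.3747 for Kit in neuronal cells. For the counts of calls between classes and stages above, the share of all genes called in the same fit is not given here. They cannot be set against it, apart from DESeq2 in neuronal cells between stages, which called 16.1% of all genes.

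Over all genes, the number called across the alternatives ran from 0 to 1269 (main 5) in mesenchymal, 0 to 211 (main 2) in Hox3, 0 to 1316 (main 9) in Foxf1, 0 to 1126 (main 23) in other mesenchymal, 0 to 716 (main 5) in Sox10 and 0 to 334 (main 0) in neuronal cells between genotypes. It ran from 2707 to 6337 (main 6064) for mesenchymal against Sox10, 5188 to 8706 (main 8148) for neuronal against Sox10, 31 to 2722 (main 1738) for Hox3 and 142 to 2434 (main 1854) for Foxf1 against other mesenchymal cells, and 54 to 1031 (main 377) for melanoblast genes. Between stages it ran from 0 to 5337 (main 3922) in mesenchymal, 0 to 3520 (main 2058) in Hox3, 536 to 4804 (main 3381) in Foxf1, 247 to 3844 (main 2654) in Sox10 and 1 to 2649 (main 1189) in neuronal cells.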
